A study of Mus musculus with 12 samples.

Results

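The gene set examined here holds 59 genes of mitosis and S phase, chosen by symbol, of which 58 have a probe set annotated to that symbol alone, among 18194 genes measured that way on the arrays. Where a gene had several such probe sets, the one with the highest mean over the 12 arrays stands for it. By the step of the cell cycle in which their products act, 44 of the 58 are called mitotic here and 12 S-phase, and the remaining 2 are the D cyclin genes Ccnd1 and Ccnd2. Ccnb1 (cyclin B1), the 59th, was not analysed here. RNA came from whole pancreas of mice 8 weeks old and was hybridised to Affymetrix arrays, 1 mouse per array. The 4 groups were C57BL6/J mice (Jackson, "J") with cerulein-induced chronic pancreatitis, C57BL6/NHsd mice (Harlan, "NHsd") with cerulein-induced chronic pancreatitis, saline-injected J mice and saline-injected NHsd mice, with 3 mice in each. Cerulein is a peptide analog of cholecystokinin that overstimulates the acinar cells, and repeated doses produce pancreatitis. Values are the deposited log2 signals, so that a difference of 1 is a doubling, and they run from a floor of 2.39 to 16.4. Signals at or under log2 4 are treated as dim, that is, as upper bounds only.

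A cell that enters the cycle first makes D cyclins, then in S phase copies its DNA, and in mitosis condenses the chromosomes, attaches them to the spindle, holds them at the spindle checkpoint and separates them when the anaphase-promoting complex marks cyclins and securin for destruction. Transcription of the S-phase genes depends largely on E2F factors, whereas many mitotic genes carry a cell cycle homology region (CHR), an element near the start site through which a complex with Lin54 and pocket proteins represses them in resting cells and Myb and Foxm1 help to activate them in cycling cells. In the adult pancreas most acinar cells rest, and cells that divide in pancreatitis can be acinar, ductal, stromal or immune.

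Since most mitotic members hold a CHR near the start and none of the S-phase members with a window does, promoter stretches from 110 bases before to 40 bases after the start are printed for 7 mitotic and 3 S-phase members with changes described below, in the gene's own direction. The sequences are RefSeq's, of build GRCm38.p6, and 48 of the 59 genes matched a window there. Capitals mark a CHR, a CCAAT box or an E2F site on either strand.
Ube2c: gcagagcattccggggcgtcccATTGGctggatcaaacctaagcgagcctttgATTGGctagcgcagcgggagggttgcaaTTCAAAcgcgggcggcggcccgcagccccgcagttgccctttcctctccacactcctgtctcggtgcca
Top2a: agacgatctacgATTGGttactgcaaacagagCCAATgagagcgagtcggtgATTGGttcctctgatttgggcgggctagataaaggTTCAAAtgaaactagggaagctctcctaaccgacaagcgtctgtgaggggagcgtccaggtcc
Smc2: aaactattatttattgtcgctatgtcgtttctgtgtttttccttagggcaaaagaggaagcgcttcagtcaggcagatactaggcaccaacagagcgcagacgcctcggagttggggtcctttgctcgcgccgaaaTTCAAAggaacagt
Cdk1: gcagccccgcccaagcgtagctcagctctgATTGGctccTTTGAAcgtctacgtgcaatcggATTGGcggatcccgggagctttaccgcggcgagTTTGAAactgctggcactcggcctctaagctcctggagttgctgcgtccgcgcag
Ccnb2: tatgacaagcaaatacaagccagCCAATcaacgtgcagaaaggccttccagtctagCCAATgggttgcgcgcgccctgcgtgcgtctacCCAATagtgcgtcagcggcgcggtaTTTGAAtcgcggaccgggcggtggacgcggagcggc
Cdc20: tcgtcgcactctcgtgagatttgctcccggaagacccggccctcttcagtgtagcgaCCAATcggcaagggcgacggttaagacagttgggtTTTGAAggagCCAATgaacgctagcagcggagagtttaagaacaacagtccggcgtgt
Birc5: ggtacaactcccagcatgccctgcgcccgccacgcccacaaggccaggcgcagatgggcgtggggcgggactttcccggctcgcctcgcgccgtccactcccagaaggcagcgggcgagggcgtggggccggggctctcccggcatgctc
Hells: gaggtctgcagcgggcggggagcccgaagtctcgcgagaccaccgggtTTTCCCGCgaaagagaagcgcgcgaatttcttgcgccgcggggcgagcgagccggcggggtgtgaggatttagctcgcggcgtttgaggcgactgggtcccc
Pcna: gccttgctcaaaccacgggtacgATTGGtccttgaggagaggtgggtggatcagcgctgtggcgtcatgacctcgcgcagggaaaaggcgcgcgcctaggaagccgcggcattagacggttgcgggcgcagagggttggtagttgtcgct
Rrm2: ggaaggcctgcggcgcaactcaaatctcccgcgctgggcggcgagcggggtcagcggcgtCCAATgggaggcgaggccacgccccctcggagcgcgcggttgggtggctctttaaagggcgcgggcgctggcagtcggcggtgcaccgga

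The Ube2c stretch lies at chr2:164769819-164769968 (plus strand), Top2a at chr11:99024150-99024299 (minus strand), Smc2 at chr4:52439111-52439260 (plus strand), Cdk1 at chr10:69352873-69353022 (minus strand), Ccnb2 at chr9:70421515-70421664 (minus strand), Cdc20 at chr4:118437304-118437453 (minus strand) and Birc5 at chr11:117849127-117849276 (plus strand). The S-phase stretches lie at chr19:38930880-38931029 (plus strand) for Hells, chr2:132253141-132253290 (minus strand) for Pcna and chr12:24708144-24708293 (plus strand) for Rrm2. In Ube2c, Top2a, Cdk1 and Cdc20 a CHR stands just before the start, in Ccnb2 and Smc2 just after it, and Birc5 has none of the 3 motifs in its stretch. Hells has an E2F site and Pcna and Rrm2 a CCAAT box. Both strands of the whole windows (250 bases before to 50 after the start) were searched for TTTGAA, for CCAAT and, as E2F sites, for TTTCCCGC, TTTCGCGC, TTTGCCGC and TTTGGCGC, and 1 CHR overlapped a CCAAT box (Cdca8) and 2 pairs of CCAAT boxes on opposite strands overlapped each other (Ube2c and Uhrf1). A CHR was in the window of 27 of 37 mitotic genes (73%) and of 0 of 11 S-phase genes, against 15.7% of the 14453 genes of the arrays with a window and 17.9% of all 32851 windows of this length. In 25 of the 37 (67.6%) it lay within 50 bases of the start, against 4.1% of the genes of the arrays. A CCAAT box was in 26 of 37 mitotic windows (70.3%) and 4 of 11 S-phase windows (36.4%), against 42% of the genes of the arrays, and 23 members had both motifs. E2F sites so spelled were rare, in 2 of 37 mitotic (5.41%) and 2 of 11 S-phase genes (18.2%), against 3.81%. The mitotic members with a CHR had a median log2 change after cerulein of 1.74 (n = 27, of which 23 rose) and those with a window and no CHR one of 1.25 (n = 9, of which 8 rose). These counts describe letters in a window and were not tested.

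**Figure D1:**
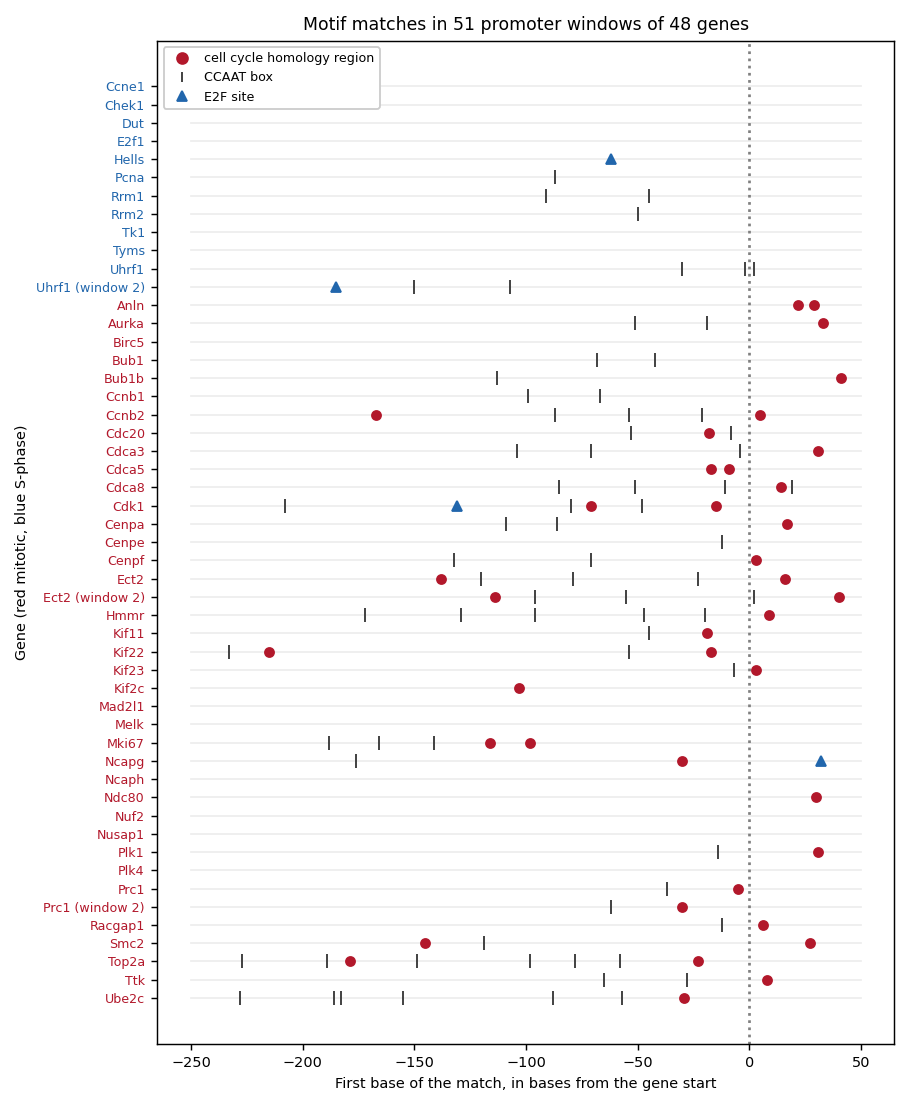
Position of each motif match in the RefSeq promoter windows of the member genes, in bases from the gene start (dotted line at 0), with S-phase genes in blue at the top and mitotic genes in red below; circles are CHR matches, bars CCAAT boxes and triangles E2F sites. Circles appear in 27 of 37 mitotic genes, 25 of them within 50 bases of the start, and in none of the 11 S-phase genes.

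Arrays were first compared for quality. The share of probe sets above log2 4 was 29.5 to 31.3 percent on cerulein arrays and 26.3 to 27.0 percent on saline arrays. The signal of the spiked-in hybridisation controls (9 probe sets) was lower on cerulein arrays, at 6.56 ± 0.14 log2, than on saline arrays, at 8.36 ± 0.41 (SD, n = 6 each), and the poly-A spikes (12 probe sets) gave 7.11 ± 0.58 and 9.83 ± 0.44. The 3′ minus 5′ signal of Gapdh, a measure of RNA integrity, was 0.83 ± 0.13 on cerulein arrays and 1.22 ± 0.20 on saline arrays. Hybridisation controls ran from 6.41 to 6.81 on cerulein and 7.96 to 9.09 on saline arrays, and poly-A spikes from 6.75 to 8.28 and 9.43 to 10.6. Genes above log2 4 on all 12 arrays (6403) had a median change of 0.40 after cerulein, so member changes are also given with array medians made equal. A technical difference between the arrays of the treatments cannot be told apart from cerulein here, also with equal medians. J cerulein replicate 1 stood apart, with a poly-A spike mean of 8.28, against 6.75 to 6.998 on the other cerulein arrays, and the lowest mean correlation with its own group, 0.983. Markers of the tissue were present: the 6 acinar genes summed to 112070 to 154877 linear signal units on cerulein arrays and 171099 to 179442 on saline arrays.

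Proliferation genes were higher in the pancreas after cerulein in both substrains. Of the 58 members 49 rose and 1, Foxm1, fell, taking both substrains together (limma, adjusted p below 0.05 over all genes), where 29.1% of all genes rose and 7.32% fell. Their median change was 1.63 log2, and 41 of 58 rose by at least 1, against 11.7% of all genes. All 6 cerulein arrays lay above all 6 saline arrays in 46 of the 58 (20.6% of all genes) and below them in 1 (3.61%). With equal medians 38 members rose and 5 fell (12.1% and 27.4% of all genes) and their median change was 1.08, and after quantile normalization 50 rose and 2 fell (19.7% and 19.1%). The 11 members that rose and did not pass with equal medians were Aurka, Aurkb, Ccne1, Ccne2, Hmmr, Melk, Ncapg, Plk1, Prc1, Tk1 and Tpx2, of which Aurka, Plk1 and Tpx2 turned to -0.08, -0.11 and -0.23, and Ccne1 and Tpx2 did not pass after quantile normalization either (0.49 and -0.14). In whole tissue, more cycling cells and more RNA of these genes per cell cannot be told apart.

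In saline pancreas most members were dim. On all 6 saline arrays 44 of 58 were at or under log2 4, so for them the log2 change measures the cerulein signal over a bound, and 10 members were dim on all 12 arrays, of which 4 (Aurka, Ncapg, Plk1 and Tk1) still rose. Of the 44 members above log2 4 on at least 3 arrays, 34 were above it on fewer than 3 saline arrays. With dim groups set to log2 4, the median change was 0.89 over the 58 members, 0.27 over the mitotic and 1.20 over the S-phase members. Dim saline arrays bound 38 of 44 mitotic and 6 of 12 S-phase members.

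**Figure D2:**
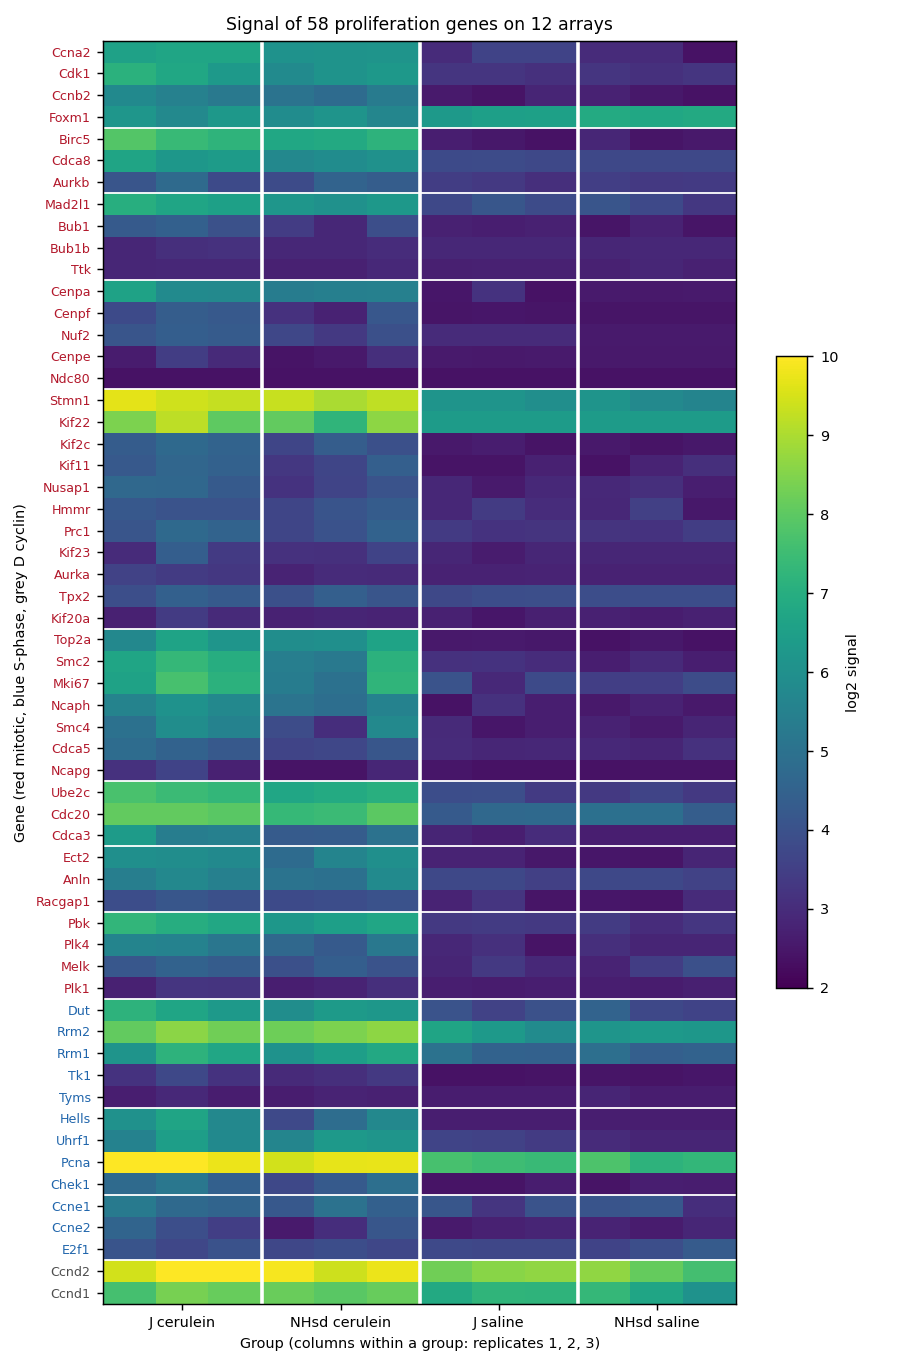
Log2 signal (colour, scale at right) of the 58 measured members, one gene a line and grouped by role (white lines), on the 12 arrays, cerulein groups left of saline groups; gene names are red for mitotic, blue for S-phase and grey for D cyclin genes. Most lines are brighter over the 6 cerulein arrays, with 44 members at or under log2 4 on all 6 saline arrays, and Foxm1 is the member that is brighter after saline.

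The drivers of mitosis came up together apart from Foxm1. Ccna2 (cyclin A2, the partner of Cdk2 and Cdk1 in S and G2 phase) gave 6.59, 6.71 and 6.70 in J cerulein, 6.07, 6.12 and 6.13 in NHsd cerulein, 2.98, 3.62 and 3.60 in J saline and 2.98, 2.98 and 2.39 in NHsd saline pancreas. Cdk1 (the kinase that starts mitosis) gave 7.12, 6.78 and 6.30 in J cerulein, 5.83, 6.11 and 6.28 in NHsd cerulein, 3.24, 3.24 and 3.10 in J saline and 3.25, 3.11 and 3.25 in NHsd saline pancreas. Ccnb2 (cyclin B2, a partner of Cdk1) gave 5.80, 5.52 and 5.23 in J cerulein, 5.03, 4.81 and 5.33 in NHsd cerulein, 2.58, 2.42 and 2.83 in J saline and 2.77, 2.51 and 2.39 in NHsd saline pancreas. In these 3 genes every cerulein array was above every saline array, and the changes were 3.29, 3.20 and 2.70 log2 (limma adjusted p 1.47e-06, 1.41e-06 and 3.19e-06). Foxm1, the forkhead factor that activates mitotic genes, went the other way. Foxm1 gave 6.21, 5.77 and 6.27 in J cerulein, 5.89, 6.15 and 5.66 in NHsd cerulein, 6.31, 6.53 and 6.56 in J saline and 6.89, 6.77 and 6.87 in NHsd saline pancreas. All 6 cerulein arrays were below all 6 saline arrays, a difference of -0.66 (SE 0.11, limma adjusted p 0.0015). The other 3 Foxm1 probe sets stayed dim on every array, with differences of -0.03 to -0.19, so the fall of Foxm1 rests on 1 of its 4 probe sets.

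The chromosomal passenger complex, which corrects faulty spindle attachments, held the member with the largest change, and all 3 of its measured members rose (median 2.40). Birc5 (survivin, the subunit that brings the complex to the centromere) gave 7.87, 7.40 and 7.22 in J cerulein, 6.77, 6.87 and 7.17 in NHsd cerulein, 2.67, 2.51 and 2.39 in J saline and 2.87, 2.44 and 2.55 in NHsd saline pancreas. Every saline array was dim and every cerulein array far above them, a difference of 4.64 (SE 0.13, limma adjusted p 4.61e-07). Cdca8 (borealin, the partner that binds survivin) gave 6.68, 6.22 and 6.39 in J cerulein, 5.73, 5.88 and 6.06 in NHsd cerulein, 3.80, 3.83 and 3.74 in J saline and 3.74, 3.74 and 3.74 in NHsd saline pancreas. The difference was 2.40 (SE 0.08), with at least 5.39-fold higher signal in J and 3.70-fold in NHsd, since saline was dim. Aurkb, the kinase of the complex, reached 3.78 to 4.77 on cerulein arrays, against 3.07 to 3.50 on saline arrays, a rise of 0.90 (limma adjusted p 0.00447).

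Genes that shape chromosomes rose in 7 of 7 cases, with a median of 2.81. Top2a (topoisomerase II alpha, which untangles sister DNA before they part) gave 5.73, 6.63 and 6.19 in J cerulein, 5.93, 5.99 and 6.63 in NHsd cerulein, 2.54, 2.59 and 2.51 in J saline and 2.39, 2.51 and 2.39 in NHsd saline pancreas. Its saline arrays were near the floor, and no array of either treatment overlapped the other, with a difference of 3.69 (SE 0.17, limma adjusted p 1.99e-06) and at least 4.54-fold in J and 4.55-fold in NHsd. Smc2 (an ATPase core subunit of condensin) gave 6.70, 7.32 and 6.99 in J cerulein, 5.43, 5.23 and 7.14 in NHsd cerulein, 3.15, 3.18 and 3.01 in J saline and 2.66, 2.96 and 2.66 in NHsd saline pancreas. NHsd cerulein replicate 3 was as high as the J arrays and the other two NHsd cerulein arrays lower, all above saline, for a difference of 3.53 (SE 0.31, limma adjusted p 3.74e-05). Mki67, which encodes the Ki-67 antigen that coats mitotic chromosomes, had the same order. Mki67 gave 6.60, 7.68 and 7.13 in J cerulein, 5.35, 4.998 and 7.24 in NHsd cerulein, 4.06, 2.91 and 3.80 in J saline and 3.49, 3.50 and 3.86 in NHsd saline pancreas. It rose by 2.90 (SE 0.40, limma adjusted p 0.000534). The condensin genes Ncaph, Smc4 and Ncapg rose by 2.81, 2.14 and 0.44, and Cdca5 (sororin, which protects sister cohesion) by 1.24.

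The 3 genes of anaphase and protein destruction all rose (median 3.16). Ube2c (the ubiquitin-conjugating enzyme of the anaphase-promoting complex) gave 7.69, 7.45 and 7.30 in J cerulein, 6.74, 6.90 and 7.06 in NHsd cerulein, 3.88, 3.94 and 3.37 in J saline and 3.34, 3.65 and 3.32 in NHsd saline pancreas. The cerulein arrays lay well apart from the saline arrays, by 3.61 (SE 0.12, limma adjusted p 5.43e-07), or at least 11.2-fold in J and 7.46-fold in NHsd. Cdc20 (an activator of that complex) gave 8.07, 8.07 and 7.97 in J cerulein, 7.37, 7.45 and 7.98 in NHsd cerulein, 4.27, 4.72 and 4.73 in J saline and 4.95, 4.89 and 4.37 in NHsd saline pancreas. Saline signals of Cdc20 were above log2 4, so its change of 3.16 (SE 0.15) rests on signal on both sides. Cdca3, which acts in the destruction of mitotic inhibitors, rose by 2.39.

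Other mitotic kinases (4 of 4, median 1.62, or 2 of 4 and 1.08 with equal medians) and cytokinesis genes (3 of 3, median 1.74) rose too. Pbk (a kinase active in mitotic cells) gave 7.26, 6.99 and 6.79 in J cerulein, 6.23, 6.53 and 6.75 in NHsd cerulein, 3.31, 3.40 and 3.31 in J saline and 3.40, 3.01 and 3.26 in NHsd saline pancreas. No cerulein array of Pbk overlapped a saline array, at 3.47 (SE 0.11, limma adjusted p 5.43e-07), or at least 8.07-fold in J and 5.67-fold in NHsd. Plk4, which starts centriole duplication, rose by 2.22 and Melk by 1.02, whereas Plk1, the kinase that acts at most steps of mitosis, was dim on all 12 arrays and rose by only 0.29 (limma adjusted p 0.0425). Of the cytokinesis genes, Ect2, which activates the GTPase RhoA at the cleavage site, rose by 3.04, the ring scaffold Anln (anillin) by 1.74 and Racgap1 by 1.22.

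Spindle and kinetochore genes were mixed. Of 11 spindle motors and microtubule proteins 9 rose (median 1.03), or 5 with equal medians (median 0.49), the largest being Stmn1, the microtubule destabiliser stathmin. Stmn1 gave 9.68, 9.43 and 9.30 in J cerulein, 9.32, 8.999 and 9.24 in NHsd cerulein, 6.14, 6.13 and 5.95 in J saline and 6.13, 5.77 and 5.60 in NHsd saline pancreas. It was well above log2 4 in every group, and the difference was 3.38 (SE 0.11, limma adjusted p 5.43e-07). Kif22, Kif2c and Kif11, motors that move or trim spindle microtubules, rose by 1.88, 1.75 and 1.50, and Kif20a and Kif23 did not pass (limma adjusted p 0.101 and 0.0587). Of 5 kinetochore and centromere genes 3 rose, namely Cenpa, the histone variant of centromeres, by 3.13, Cenpf by 1.30 and Nuf2, a subunit of the Ndc80 complex, by 1.18; the list's median was 1.18, or 0.64 with equal medians.

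Of the 4 checkpoint genes, Mad2l1, which holds Cdc20 inactive until chromosomes attach, rose by 2.65 and Bub1 by 1.20, and the median of the 4 was 0.65, or 0.19 with equal medians. The mitotic members with the smallest changes were Ndc80, which binds microtubules at the kinetochore, and the checkpoint kinases Ttk and Bub1b. Ndc80 lay at the floor of 2.39 on 11 arrays and at 2.40 on the remaining one. Ttk gave 2.86, 2.88 and 2.91 in J cerulein, 2.74, 2.74 and 2.94 in NHsd cerulein, 2.69, 2.74 and 2.74 in J saline and 2.74, 2.87 and 2.74 in NHsd saline pancreas. Bub1b gave 2.85, 3.09 and 3.15 in J cerulein, 2.90, 2.90 and 3.03 in NHsd cerulein, 2.90, 2.90 and 2.90 in J saline and 2.85, 2.90 and 2.90 in NHsd saline pancreas. All 3 were dim on all 12 arrays, and their changes of 0.00, 0.09 and 0.10 did not pass (limma adjusted p 0.765, 0.108 and 0.164). With equal medians those of Ttk and Bub1b were -0.27 and -0.37, past the threshold. Another Bub1b probe set, also dim, differed by 0.44, with 2.75 to 3.24 on cerulein and 2.39 to 2.67 on saline arrays. A further dim one differed by -0.07, so the Bub1b result depends on the probe set.

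**Figure D3:**
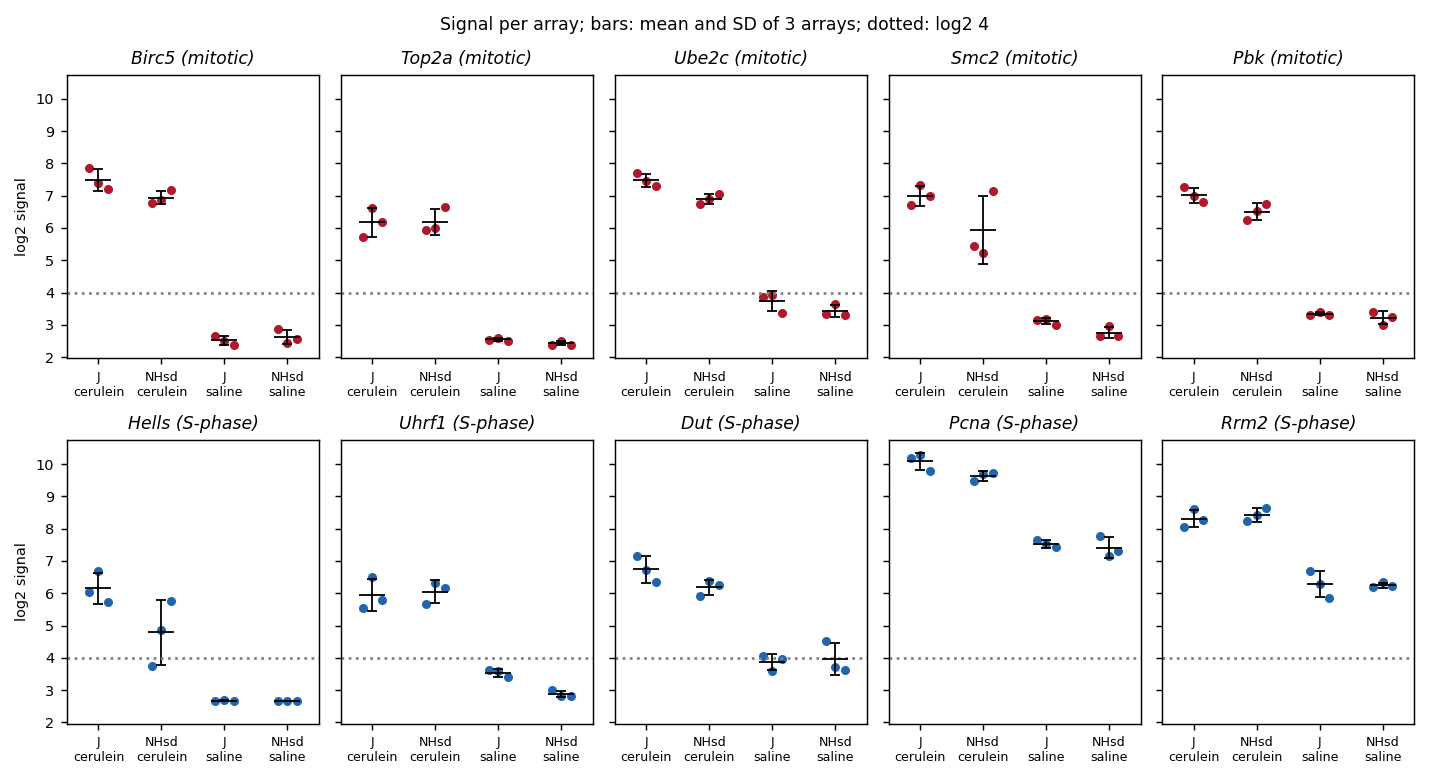
Log2 signal on each array of the 5 mitotic genes (top, red) and 5 S-phase genes (bottom, blue) with the largest changes, cerulein groups left of saline groups; points are arrays, bars the mean and SD of 3 arrays, and the dotted line log2 4. In all 10 genes the 6 cerulein points lie above the 6 saline points, and in Smc2 and Hells the 3 NHsd cerulein points are spread widest.

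S-phase genes rose in 10 of 12 cases, with a median of 1.97. Those that copy DNA and chromatin or watch over replication all rose (4 of 4, median 2.58). Pcna (the clamp that tethers DNA polymerases) gave 10.18, 10.29 and 9.78 in J cerulein, 9.46, 9.70 and 9.73 in NHsd cerulein, 7.66, 7.52 and 7.42 in J saline and 7.78, 7.17 and 7.30 in NHsd saline pancreas. Pcna was bright in every group and its cerulein arrays did not reach down to the saline arrays, a difference of 2.38 (SE 0.13, limma adjusted p 4.02e-06). Hells (a chromatin remodeller needed for DNA methylation) gave 6.04, 6.68 and 5.74 in J cerulein, 3.75, 4.86 and 5.75 in NHsd cerulein, 2.67, 2.68 and 2.68 in J saline and 2.68, 2.67 and 2.67 in NHsd saline pancreas. Its saline arrays were all at one dim level, and the NHsd cerulein arrays were spread widely but all above saline, with a difference of 2.79 (SE 0.31, limma adjusted p 0.000138). Uhrf1 (which brings the DNA methyltransferase Dnmt1 to newly copied DNA) gave 5.54, 6.49 and 5.80 in J cerulein, 5.65, 6.32 and 6.17 in NHsd cerulein, 3.63, 3.59 and 3.40 in J saline and 2.99, 2.83 and 2.83 in NHsd saline pancreas. Uhrf1 rose by 2.78 (SE 0.17, limma adjusted p 6.89e-06), or at least 3.85-fold in J and 4.13-fold in NHsd, with no overlap between treatments. Chek1, the kinase that stops the cycle when replication stalls, rose by 2.02.

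Genes that supply nucleotides rose in 4 of 5 cases (median 1.93). Rrm2 (the small subunit of ribonucleotide reductase) gave 8.06, 8.60 and 8.28 in J cerulein, 8.23, 8.41 and 8.64 in NHsd cerulein, 6.68, 6.28 and 5.87 in J saline and 6.19, 6.34 and 6.24 in NHsd saline pancreas. Dut (the enzyme that keeps uracil out of DNA) gave 7.17, 6.71 and 6.34 in J cerulein, 5.92, 6.37 and 6.25 in NHsd cerulein, 4.05, 3.58 and 3.98 in J saline and 4.53, 3.72 and 3.62 in NHsd saline pancreas. Neither gene's treatments overlapped, and the changes were 2.11 (SE 0.15, limma adjusted p 1.24e-05) and 2.54 (SE 0.20, limma adjusted p 2.37e-05). Rrm1, the large subunit, rose by 1.93. Tk1 (thymidine kinase) gave 3.16, 3.74 and 3.18 in J cerulein, 2.95, 3.08 and 3.34 in NHsd cerulein, 2.39, 2.39 and 2.43 in J saline and 2.47, 2.43 and 2.48 in NHsd saline pancreas. Tyms (thymidylate synthase) gave 2.66, 2.92 and 2.65 in J cerulein, 2.66, 2.81 and 2.74 in NHsd cerulein, 2.63, 2.66 and 2.66 in J saline and 2.83, 2.65 and 2.63 in NHsd saline pancreas. Both were dim on all 12 arrays, and Tk1 rose by 0.81 (limma adjusted p 0.000395) with no overlap, whereas Tyms changed by 0.07 (limma adjusted p 0.393). With equal medians Tyms was at -0.19, past the threshold.

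The drivers of the G1 to S step had the lowest median change of the S-phase roles, 0.89, or 0.39 with equal medians, where none of the 3 rose and 1 fell. Ccne1 and Ccne2, the E cyclins that activate Cdk2, rose by 0.93 and 0.89 (limma adjusted p 0.0242 and 0.0277) over both substrains, and the Ccne2 arrays of the treatments overlapped. E2f1 (the E2F factor that turns on S-phase genes) gave 4.09, 3.71 and 4.01 in J cerulein, 3.69, 3.89 and 3.71 in NHsd cerulein, 3.76, 3.71 and 3.71 in J saline and 3.61, 3.94 and 4.31 in NHsd saline pancreas. These arrays overlapped throughout, and the difference was 0.01 (limma adjusted p 1), or -0.54 with equal medians and -0.40 after quantile normalization, both past the threshold. Ccnd1 (cyclin D1) gave 7.64, 8.35 and 8.16 in J cerulein, 8.18, 7.96 and 8.15 in NHsd cerulein, 6.87, 7.24 and 7.20 in J saline and 7.32, 6.71 and 6.06 in NHsd saline pancreas. Ccnd2 (cyclin D2) gave 9.44, 10.31 and 10.24 in J cerulein, 9.88, 9.38 and 9.76 in NHsd cerulein, 8.26, 8.58 and 8.66 in J saline and 8.66, 8.10 and 7.61 in NHsd saline pancreas. Both D cyclins, which pass growth signals on to Cdk4 and Cdk6, were bright in every group and rose without overlap, Ccnd1 by 1.17 (SE 0.21, limma adjusted p 0.00215) and Ccnd2 by 1.52 (SE 0.22, limma adjusted p 0.000608), with a median of 1.35, or 0.80 with equal medians. Of the other Ccnd1 probe sets, 1 changed by 0.79 and 1, which was above log2 4 on 3 arrays only, by -0.12. Over the members, 17 other probe sets were above log2 4 on at least 3 arrays, and that of Ccnd1 was the 1 of them with a change below 0. Some of the 17 reached that level through cerulein arrays only, so their rise adds no support. Of the 65 other probe sets under that level, 3 went against the probe set used, both by over 0.2. They belong to Kif11 (-0.33), Kif2c (-0.25) and Tpx2 (-0.31).

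**Figure D4:**
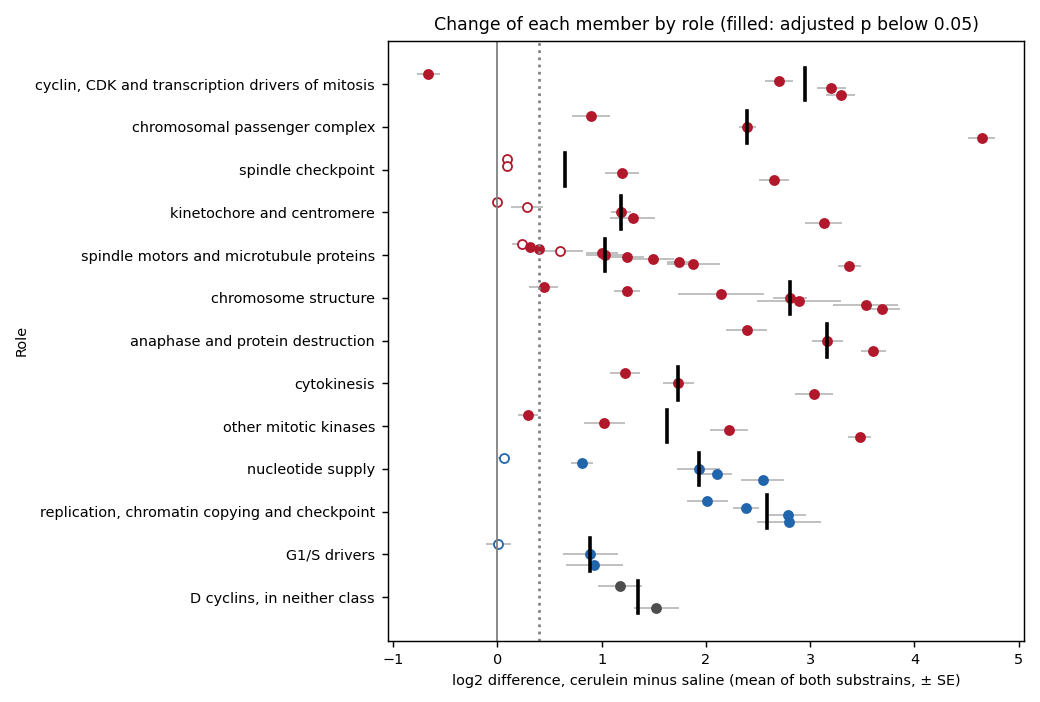
Log2 change of each member (cerulein minus saline, mean of both substrains; horizontal bars ± SE of the limma fit) by role, with red for mitotic, blue for S-phase and grey for D cyclin genes; filled circles have an adjusted p below 0.05, short lines are role medians, and the dotted line at 0.40 is the median of genes above log2 4 on all 12 arrays. Anaphase genes (median 3.16) and the drivers of mitosis (2.95) have the highest role medians, ahead of chromosome structure genes (2.81). The spindle checkpoint (0.65) and the G1/S drivers (0.89) have the lowest.

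S-phase and mitotic members were set against each other over the 4 groups by taking, on each array, the median over a class of the signal minus that gene's saline mean. The mitotic level was 1.83, 2.04 and 1.81 on the J cerulein arrays, 1.11, 1.18 and 1.76 on the NHsd cerulein arrays, and between -0.01 and 0.04 on the 6 saline arrays. The S-phase level was 1.82, 2.42 and 1.96 on the J cerulein arrays, 1.14, 1.79 and 2.22 on the NHsd cerulein arrays, and between -0.04 and 0.07 on the saline arrays. The S-phase level thus exceeded the mitotic level on 5 of 6 cerulein arrays, and NHsd cerulein replicate 1 was the lowest cerulein array in both classes. The class medians of the change after cerulein were 1.91 for mitotic and 2.02 for S-phase members in J, and 1.38 and 1.79 in NHsd. The mitotic minus S-phase difference of medians was -0.36 over both substrains, -0.11 in J and -0.40 in NHsd. With dim groups set to log2 4 the class medians over both substrains were 0.27 and 1.20. That setting cuts the classes unequally, since 38 of 44 mitotic and 6 of 12 S-phase members were dim on all saline arrays. With all probe sets of a gene averaged the difference was 0.028. With filters on level the difference was 0.29 (above log2 4 on at least 3 arrays) and 0.75 (mean above log2 4). Of the members passing the first filter, 29 of the 33 mitotic and 5 of the 9 S-phase members were above log2 4 on fewer than 3 saline arrays. Such filters thus keep members largely through cerulein arrays, and without them the floor cuts the mitotic changes more often. The order of the classes depends on how dim signals are handled and is not settled here.

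Neighbouring genes of the cell cycle were examined from lists of the same pathway. Of 17 genes of the replicative helicase and its licensing 13 rose and 1 fell (median 1.41), or 11 and 3 with equal medians (0.86). Mcm6 (a helicase subunit) gave 8.37, 9.02 and 8.29 in J cerulein, 7.91, 8.55 and 8.59 in NHsd cerulein, 3.65, 4.13 and 4.13 in J saline and 4.10, 4.05 and 3.88 in NHsd saline pancreas. Mcm5 (another) gave 8.05, 8.79 and 8.22 in J cerulein, 7.52, 8.07 and 8.07 in NHsd cerulein, 3.83, 4.01 and 3.56 in J saline and 4.20, 4.08 and 3.13 in NHsd saline pancreas. Both had cerulein arrays far above saline arrays, by 4.46 and 4.32, whereas Orc1, of the origin recognition complex, fell by 0.98 (limma adjusted p 0.00104). Of 15 replication polymerase and accessory genes 13 rose (median 1.32), or 11, with 2 falling, with equal medians (0.78). Prim1 (the catalytic subunit of primase) gave 6.14, 5.99 and 5.36 in J cerulein, 4.91, 5.29 and 5.54 in NHsd cerulein, 2.98, 2.69 and 2.98 in J saline and 3.04, 2.79 and 3.13 in NHsd saline pancreas. Rfc4 (a subunit of the clamp loader) gave 7.77, 7.05 and 6.61 in J cerulein, 6.30, 6.80 and 6.80 in NHsd cerulein, 4.76, 4.10 and 4.84 in J saline and 4.94, 4.28 and 3.88 in NHsd saline pancreas. Both rose without overlap, by 2.60 and 2.42.

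The pocket proteins and other E2F-pathway factors depended on the scaling: of 13 genes 9 rose and 0 fell (median 0.56), against 5 and 3 with equal medians (0.06) and 8 and 1 after quantile normalization (0.55). Rbl1 (the pocket protein p107) gave 4.92, 5.59 and 4.92 in J cerulein, 4.80, 5.01 and 5.09 in NHsd cerulein, 3.01, 2.79 and 3.17 in J saline and 2.68, 2.68 and 2.79 in NHsd saline pancreas. Lin54 (the CHR-binding subunit) gave 5.24, 5.19 and 4.86 in J cerulein, 4.51, 4.82 and 5.03 in NHsd cerulein, 3.81, 3.34 and 3.34 in J saline and 3.46, 3.34 and 3.40 in NHsd saline pancreas. Every saline array of these genes was dim and every cerulein array above log2 4, with changes of 2.20 and 1.49. Of 6 G1 cyclin and kinase genes 4 rose and 1, the phosphatase gene Cdc25a, fell by 0.30 (median 0.97), against 3 and 2 with equal medians (0.43). Cdk4 (a partner of the D cyclins) gave 8.57, 8.34 and 7.96 in J cerulein, 8.32, 8.02 and 7.96 in NHsd cerulein, 6.41, 6.06 and 6.14 in J saline and 6.34, 5.94 and 6.13 in NHsd saline pancreas. Cdk6 (another) gave 7.08, 7.71 and 7.50 in J cerulein, 7.49, 7.52 and 7.81 in NHsd cerulein, 6.41, 6.46 and 6.10 in J saline and 5.72, 5.57 and 6.02 in NHsd saline pancreas. Both kinases were bright in every group and rose without overlap, by 2.03 and 1.47.

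Genes that restrain the cycle rose beside the members. Of 7 CDK inhibitor genes 5 rose (median 0.95), against 3 rising and 1 falling with equal medians (0.40). Cdkn1c (p57) gave 6.13, 6.04 and 5.80 in J cerulein, 5.27, 5.71 and 5.63 in NHsd cerulein, 3.60, 4.20 and 3.81 in J saline and 3.49, 4.24 and 3.83 in NHsd saline pancreas. Cdkn1a (p21) gave 8.07, 8.56 and 8.29 in J cerulein, 8.01, 8.09 and 7.17 in NHsd cerulein, 5.99, 6.19 and 6.39 in J saline and 6.13, 7.78 and 6.28 in NHsd saline pancreas. Cdkn1c did not overlap between treatments and rose by 1.90 (SE 0.16, limma adjusted p 2.86e-05), and Cdkn1a rose by 1.57 (SE 0.30, limma adjusted p 0.00307) with NHsd saline replicate 2 above NHsd cerulein replicate 3. Cdkn2c (p18) gave 6.60, 6.12 and 6.11 in J cerulein, 6.13, 5.99 and 6.36 in NHsd cerulein, 5.44, 5.19 and 4.64 in J saline and 5.46, 5.39 and 5.01 in NHsd saline pancreas. Cdkn1b (p27) gave 7.82, 8.22 and 8.30 in J cerulein, 7.80, 8.27 and 8.27 in NHsd cerulein, 7.22, 7.29 and 7.16 in J saline and 7.33, 7.16 and 7.80 in NHsd saline pancreas. Cdkn2d (p19) gave 5.93, 5.23 and 4.79 in J cerulein, 4.84, 4.48 and 4.95 in NHsd cerulein, 4.52, 3.91 and 3.91 in J saline and 4.37, 3.90 and 3.91 in NHsd saline pancreas. Of these, Cdkn2c did not overlap between treatments and rose by 1.03, Cdkn1b rose by 0.79 and Cdkn2d by 0.95 with overlapping arrays, and the changes of Cdkn1b (0.24 with equal medians, 0.27 after quantile normalization) and Cdkn2d (0.40 and 0.42) did not pass under either scaling.

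Marker levels of several cell types also differed between the treatments. All 8 macrophage markers rose, with summed linear signals of 3565 to 5719 on cerulein arrays and 340 to 583 on saline arrays, and 7 of 8 fibroblast and stellate markers rose, with sums of 7268 to 20616 and 2009 to 3181. On the J cerulein arrays the macrophage level was 3.16, 3.82 and 3.30 log2 above its saline mean and on the NHsd cerulein arrays 3.21, 3.10 and 3.27. The fibroblast and stellate level was 1.14, 3.04 and 2.55 on the J and 2.09, 2.63 and 2.77 on the NHsd cerulein arrays. It was thus lowest on J cerulein replicate 1, whereas the mitotic level was lowest on NHsd cerulein replicate 1. The acinar level was -0.50, -0.41 and -0.38 on the J and -0.13, -0.58 and -0.26 on the NHsd cerulein arrays, and 4 of 6 acinar markers fell. Of 4 T cell markers none rose and 1, Zap70, fell, with Cd2, Cd3e and Cd3g dim on all arrays, and of 3 B cell markers 1 rose, with Cd79a and Cd79b dim on all arrays. Of 4 duct markers 3 rose, among them the keratin genes Krt7 by 1.88 and Krt19 by 1.17, with sums of 199 to 302 on cerulein and 120 to 159 on saline arrays and Cftr dim on all arrays. All 5 islet markers rose (median 0.64, or 1 of 5 and 0.10 with equal medians), with sums of 12986 to 21012 and 9516 to 12342, and of 5 endothelial markers 1 rose, with sums of 56.7 to 78.8 and 57.3 to 66.7 and Cdh5, Pecam1 and Tie1 dim on all arrays. The part of these cell types in the rise of the proliferation genes was not tested.

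Within each substrain the members rose likewise. In J mice 46 of 58 rose and 0 fell (20.8% and 3.59% of all genes), and in NHsd mice 40 rose and 1 fell (20.4% and 4.33%). With equal medians 37 rose and 2 fell in J (8.83% and 17.8% of all genes), and 31 rose and 8 fell in NHsd (8.31% and 22.7%). The median change was 1.91 in J and 1.50 in NHsd. Aurka, Ccne2, Cenpf, Melk, Ncapg and Smc4 passed in J and not in NHsd, and Foxm1 in NHsd only, yet the difference of the cerulein effects passed for no member (0 of 58, where 0.0715% of all genes passed with the larger change in J and 0.011% with the smaller). At an unadjusted limma p below 0.05, 8 members passed, all with the larger rise in J, against 4.95% of all genes. The 3 members with the smallest p were Aurka, the kinase that builds the spindle poles, Nusap1, a microtubule bundler, and Cdca5. Aurka gave 3.57, 3.40 and 3.28 in J cerulein, 2.79, 2.99 and 2.96 in NHsd cerulein, 2.76, 2.77 and 2.79 in J saline and 2.76, 2.76 and 2.76 in NHsd saline pancreas. Its J cerulein arrays were above all others though dim, and the difference of effects was 0.49 (SE 0.10, limma adjusted p 0.308). Nusap1 gave 4.70, 4.68 and 4.28 in J cerulein, 3.16, 3.65 and 4.05 in NHsd cerulein, 2.88, 2.56 and 2.94 in J saline and 2.92, 3.07 and 2.66 in NHsd saline pancreas. Cdca5 gave 4.84, 4.51 and 4.22 in J cerulein, 3.65, 3.69 and 4.13 in NHsd cerulein, 2.98, 2.86 and 2.88 in J saline and 2.91, 2.82 and 3.15 in NHsd saline pancreas. In both genes the J cerulein arrays lay above the NHsd cerulein arrays, and the differences of effects were 1.02 (SE 0.32) and 0.75 (SE 0.25), each with a limma adjusted p of 0.778.

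Counted by members, which are not independent of each other, signal after cerulein leaned towards J over NHsd pancreas (3 mice each). The J mean exceeded the NHsd mean by over 0.005 in 52 of 58 members, against 40.1% of all genes, and fell short of it by over 0.005 in 4, against 29.1%; the remaining genes lay within 0.005 in either direction. Among genes above log2 4 on at least 3 arrays, the J mean was higher by over 0.005 in 39 of 44 members, against 56.7% of such genes. The median difference was 0.46 over the members, 0.53 over the mitotic and 0.27 over the S-phase members. By array, the mitotic level of NHsd cerulein replicate 3 (1.76) was close to the lowest J level (1.81). Its S-phase level (2.22) lay within the J range (1.82 to 2.42). All 3 J arrays were above all 3 NHsd arrays in 16 members (5.08% of all genes) and below them in 0 (2.62%). Of these 16, 15 were mitotic (Aurka, Birc5, Bub1, Ccna2, Cdca3, Cdca5, Cdca8, Cdk1, Cenpa, Mad2l1, Ncaph, Nuf2, Nusap1, Pbk and Ube2c) and 1 was S-phase (Pcna). No single member passed after adjustment (0 of 58 by limma, where 0.044% of all genes passed as higher in J and 0.011% as lower), and 24 had an unadjusted limma p below 0.05, all higher in J, against 5.82% of all genes.

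Aurka, Cdca8 and Nuf2 had the smallest p in that comparison. Aurka, with the arrays given above, differed by 0.51 (SE 0.07, limma adjusted p 0.0734) at dim signal in both substrains, and by 0.43 to 0.57 with any 1 array left out. Cdca8 differed by 0.54 (SE 0.12, limma adjusted p 0.31), with the 3 J arrays above the 3 NHsd arrays as listed above. Nuf2 (a subunit of the Ndc80 complex) gave 4.12, 4.40 and 4.30 in J cerulein, 3.69, 3.33 and 3.96 in NHsd cerulein, 2.97, 2.97 and 2.97 in J saline and 2.59, 2.59 and 2.59 in NHsd saline pancreas. The J arrays were above the NHsd arrays in both treatments, by 0.61 after cerulein (SE 0.14, limma adjusted p 0.331). The calls moved with single arrays: without NHsd cerulein replicate 3, Cenpf and Smc2 passed, and without J cerulein replicate 1 or replicate 3, Aurka passed. The count above 0 was 57 of 58 without J cerulein replicate 1, the array that stood apart, and 48 without J cerulein replicate 2. It was 50 with equal medians and 49 after quantile normalization. Islet markers, of which 0 of 5 passed between the substrains, summed to 18213 to 21012 linear units on J cerulein and 12986 to 15837 on NHsd cerulein arrays, and macrophage markers, of which 0 of 8 passed, summed to 4090 to 5719 and 3565 to 4416. By median difference, islet (0.64), macrophage (0.31, with 6 of 8 higher in J), duct (0.11) and T cell markers (0.03) were higher in J. Fibroblast and stellate (-0.21), acinar (-0.21) and B cell markers (-0.25) were lower, and endothelial markers were at -0.002. The part of these cells in the lean towards J was not tested.

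In saline pancreas the members were split about evenly. After saline the J mean was higher by over 0.005 in 30 of 58 members, against 46.5% of all genes, and lower in 25, against 39.1%, with a median difference of 0.01. The 3 J arrays were above the 3 NHsd arrays in 4 members (Cenpe, Nuf2, Smc2 and Uhrf1; 4.53% of all genes) and below them in 2 (Foxm1 and Tk1; 3.31%). No member passed by limma (0 of 58, where 0.0385% of all genes passed as higher in J and 0.165% as lower), and 4 had an unadjusted p below 0.05, 3 higher and 1 lower in J, against 7.44% of all genes. The smallest p were those of Ccna2 (0.62 higher in J, SE 0.20), Nuf2 (0.39, SE 0.14) and Uhrf1 (0.66, SE 0.25), with limma adjusted p of 0.591, 0.591 and 0.595, and all 3 genes were dim on every saline array. In a fit of the saline groups alone Nuf2 passed.

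**Figure D5:**
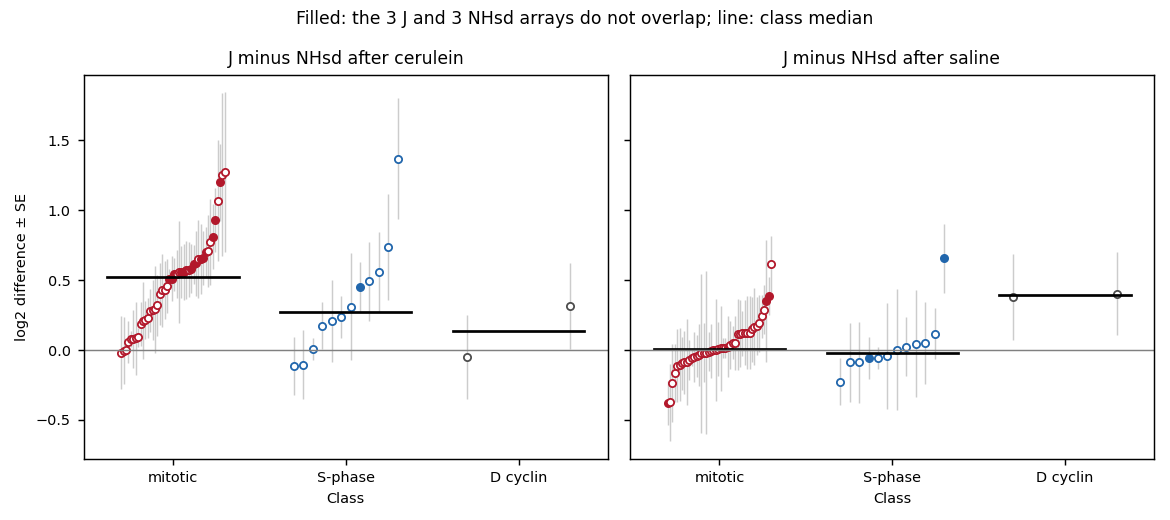
Log2 difference J minus NHsd of each member (± SE of the limma fit) after cerulein (left) and after saline (right) for mitotic, S-phase and D cyclin genes; filled circles mark genes whose 3 J and 3 NHsd arrays do not overlap, and horizontal lines are class medians. After cerulein 52 of 58 points lie above 0.005, with 16 filled circles, and after saline 30 of 58, with 6 filled circles.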

How the data were processed

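Pancreas RNA of 12 mice (4 groups of 3, grouped by the labels' titles) was labelled from 100 ng of total RNA and hybridised to Affymetrix arrays (per the labels' protocols). The deposited log2 values were made by the authors with GCRMA and Partek, named without versions in the submitters' processing notes; further steps are not given in the sources used here. GCRMA shrinks dim probe sets to a common floor, which hides changes there. Whether the arrays were normalized together is not stated there. Array medians over the genes above log2 4 on all 12 arrays were 6.56 to 6.77 on cerulein and 6.06 to 6.30 on saline arrays. Of 45101 probe sets 34958 have 1 gene symbol in the platform annotation, 932 several and 9211 none; only the first kind was used, which left 18194 genes. Precision is limited by the 3 arrays per group.

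Log2 values were fitted in R 4.3.3 with limma 3.58.1 (1 mean per group, all 12 arrays, eBayes with an intensity trend, two-sided tests, Benjamini-Hochberg adjustment over all 18194 genes, threshold 0.05), with no filter on low values, so that no member enters through the arrays where it is high. Tested on simulated data for the cerulein effect over both substrains (18194 genes), it called 46.3% of simulated 1.5-fold, 70.1% of 2-fold and 100% of 4-fold changes. The fit made 15 false calls among the unchanged genes. The changed genes were drawn only from those with a saline mean above log2 5. These rates therefore do not cover members with a saline mean at or under log2 5, among them those dim in saline pancreas. An "at least" fold compares the cerulein mean with log2 4 where all 3 saline arrays were at or under it. The replicates are separate mice per the labels. Tables and figures used python 3.11.15, pandas 2.3.3 and matplotlib 3.10.9.

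Members and gene lists were chosen with earlier results of these data known, so list counts and medians are descriptions beside those over all genes. Genes given on every array are, for each class, the 5 called members with the largest change and no overlap and the 3 with the smallest change, the D cyclins, the 3 members with the smallest p in each substrain comparison, the 2 largest changes of each pathway list and the called CDK inhibitors; Cdk1, Ccnb2, Cdc20, Foxm1, Mki67 and Stmn1 were added after their values were seen. Alternatives were filters on low values, equal array medians, quantile normalization, no trend or robust moderation, averaged probe sets, fits of the compared groups alone, a replicate block, each array left out, and adjusted p below 0.01.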

Additional observations from a re-analysis of the deposited data

How the results depend on the processing

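The counts of members that changed after cerulein moved by more than 1.5 times only with the filter for a mean above log2 4. There only 28 members were tested, so no more could be counted. Of these, 28 changed over both substrains, 26 in J and 26 in NHsd. With that filter 24 members were higher in J after cerulein, against 48 to 57 with 1 array left out. The mitotic minus S-phase difference of medians, -0.36 over both substrains, was 0.29 with the filter on 3 arrays, 0.75 with the filter on the mean and 0.028 with averaged probe sets. Of the 44 members that pass the filter on 3 arrays, 34 would not pass it on saline arrays alone. In J the difference, at -0.11, was 0.48 and 0.99 with these 2 filters and 0.077 with quantile normalization. In NHsd, at -0.40, it was 0.69 with the filter on the mean and 0.031 with averaged probe sets. Leaving out 1 array gave -0.41 to -0.30 over both substrains, -0.30 to 0.012 in J and -0.58 to -0.30 in NHsd. Members passing for J minus NHsd after cerulein numbered 0 to 2 with 1 array left out, and after saline 1 passed in a fit of the compared groups alone. With equal medians Ttk was at -0.27, Bub1b at -0.37, E2f1 at -0.54, Tyms at -0.19 and Aurka at -0.0811. By construction that setting lowers cerulein arrays (medians 6.56 to 6.77) against saline arrays (6.06 to 6.30). It then raises the lowest values to a common floor. Ttk, Bub1b, Tyms and Aurka were dim on all 12 arrays. After quantile normalization E2f1 was at -0.40, for which the cause was not tested. The labels number the replicates and do not say whether same-numbered mice are paired. Same-numbered arrays of 2 groups had correlations of deviations from -0.22 to 0.37 (18 pairs), which cannot settle it. With the replicate block 48 members changed over both substrains, 43 in J and 38 in NHsd, and 0 in the substrain comparisons. Dim signal limits 44 members in saline pancreas, whose changes are bounded by log2 4.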
